A study of Homo sapiens with 10 samples.

Results

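The RNA content of extracellular vesicles (EVs) pelleted at the 2.8K spin was compared with that of the whole cells that released them. The cells are PC3, an established human prostate cancer line from a bone metastasis, grown in DMEM with fetal bovine serum. The members are the 3 EV 2.8K libraries (sets 1, 2 and 3) and the 1 library of whole PC3 cells, chosen by their titles. They are 4 of the 10 libraries of the series, whose other 6 come from pellets of the 10K and 100K spins. The labels give the spins without a unit, and no group carries a drug or genetic change. All libraries are read counts per gene of total RNA, made with a stranded low-input kit that does not select poly(A) tails. Total counts were 14856424, 14977955 and 10288246 in EV 2.8K sets 1, 2 and 3, and 28735081 in the whole-cell library.

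Slow spins are known to collect large vesicles and, where present, cell fragments. EVs are membrane-bound particles that cells shed by budding from the plasma membrane, by releasing vesicles stored in endosomes, or while dying. RNA can enter them with the cytoplasm they enclose, so an mRNA that sits at the cell edge, in an organelle or near the division furrow may differ in level from the whole cell. The comparison asks which RNAs of the cell are over- or under-represented in the pellet. Counts per unit of library size (CPM) were scaled with TMM factors, which assume that most genes do not differ. A higher CPM is therefore a larger part of a library, not more molecules per vesicle or per cell.

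The labelled cell type was checked on genes known to be present in or missing from PC3. The prostate genes KLK2, KLK3 and FOLH1, which the line is known to lack or hardly express, had 0 counts in all 4 libraries. Vimentin (VIM), an intermediate filament protein of PC3, was at 1095, 791 and 780 CPM in EV 2.8K, against 435 CPM in cells. Erythroid markers (7 of 7) and all but SERPINA1 of 7 liver and serum markers had 0 counts in all 4 libraries. Among 9 leukocyte markers 5 had 0 counts, PTPRC and CD3E included, and the list summed to 0 to 2.76 CPM of the total in EV 2.8K and 2.02 CPM in cells.

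EV 2.8K set 1 stood apart from sets 2 and 3. Across 9567 genes with a mean of at least 10 CPM, its levels had Spearman correlations of 0.822 and 0.797 with sets 2 and 3, which correlated with each other at 0.886. Sets 1, 2 and 3 correlated with the cell library at 0.756, 0.840 and 0.841. Of 9604 genes at 10 CPM or more in cells, 188 had 0 counts in set 1, 14 in set 2 and 14 in set 3, and none had 0 in all 3. Thinned to 10288246 counts each, EV 2.8K sets 1, 2 and 3 held 14451, 18047 and 17543 genes with at least 1 count, against 23508 genes in cells. Each EV library thus covered fewer genes than the cell library at the same depth. The part of this coverage in the results below was not tested.

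Over 21104 genes tested, 128 were higher and 43 lower in EV 2.8K than in cells (edgeR quasi-likelihood test, Benjamini-Hochberg adjusted p below 0.05). This is 0.607% higher and 0.204% lower. An unadjusted p under 0.05 was found for 1054 genes, about as many as that threshold would pass if no gene differed. All 3 EV libraries lay on the called side of the cell library for all 171 genes. At least 2-fold above the cells in every EV library were 561 genes (2.66%), and at least 2-fold below were 2389 genes (11.3%). By any margin, all 3 EV libraries lay above the cells for 13.8% of the genes tested and below them for 31.1%. Every called gene had a mean of at least 10 CPM. Of the 9567 genes at that level 1.34% were called higher and 0.449% lower, while 3.85% lay 2-fold above and 2.41% 2-fold below in all 3 libraries, and 23.8% lay above and 30.1% below by any margin. Many gene lists below hold mainly genes at that level, and for those these shares are the closer background. The cell side has 1 library, so the spread comes from the 3 EV libraries (2 residual degrees of freedom) and the cell library is assumed to vary as they do. The fit shares this spread between genes, with infinite median prior degrees of freedom and a common biological coefficient of variation of 1.25. For a typical gene the p-value thus rests on a spread pooled over genes and not on the spread of its own 3 EV values. Nothing says that the sets are separate cultures, so the p-values may measure technical spread. Without set 1 the counts were 294 higher and 177 lower, without set 2 they were 34 and 7, and without set 3 they were 90 and 29.

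**Figure D1:**
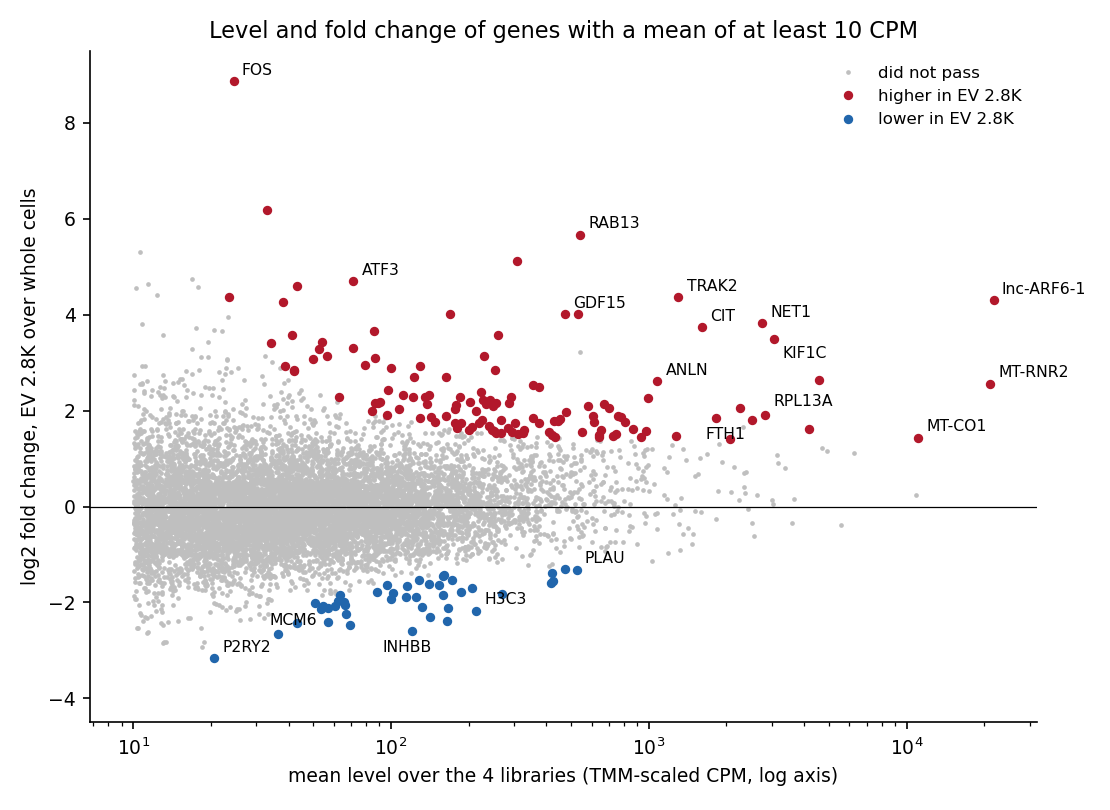
Each point is a gene with a mean of at least 10 CPM over the 4 libraries, placed by that mean (x, TMM-scaled CPM, log axis) and by its log2 fold change of EV 2.8K over whole cells (y); red genes were called higher, blue genes lower, grey genes did not pass, and genes with 0 counts in a group are left out. RAB13, NET1, KIF1C and TRAK2 combine high levels with log2 fold changes of 3.5 to 5.67, while the lowest called gene, P2RY2, is at -3.15.

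Several mRNAs known to localise to cell protrusions were far higher in EV 2.8K than in cells. In migrating cells a set of mRNAs is carried to the tips of protrusions along microtubules, a process that depends on the tumour suppressor protein APC and, for several of them, on the kinesin KIF1C. Of 18 such genes tested, 6 rose, 0 fell and 12 did not pass, where 0.607% of all genes tested were called higher. The median log2 fold change of the list was 0.44, against -0.01 over all genes. RAB13, a small GTPase of membrane traffic, was at 646, 667 and 836 CPM in EV 2.8K, against 14.1 CPM in cells. RAB13 was thus 50.9-fold higher, which is 5.67 on the log2 scale (SE 0.53; edgeR, adjusted p = 3.25e-22). TRAK2, an adaptor that links mitochondria to kinesin, was at 1633, 1423 and 2069 CPM in EV 2.8K, against 83.4 CPM in cells.

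NET1, an exchange factor for the GTPase RhoA, was at 3405, 3064 and 4290 CPM in EV 2.8K and 252 CPM in cells. The mRNA of the motor KIF1C itself was at 4642, 2997 and 4232 CPM in EV 2.8K and 351 CPM in cells. RAB13 lies at chr1:153981617-153986358, TRAK2 at chr2:201377207-201451579, NET1 at chr10:5412551-5458463 and KIF1C at chr17:4997948-5028401 (GRCh38). For these 4 genes the lowest EV library was several-fold above the cells, and the 3 EV libraries lay close together. RASSF3, a Ras-association domain protein, was at 819, 552 and 710 CPM in EV 2.8K against 42.9 CPM in cells, and CDC42BPG, a kinase bound by CDC42, at 96.2, 23.9 and 50.5 CPM against 2.36 CPM. The log2 fold changes were 4.36 for TRAK2, 3.83 for NET1, 3.5 for KIF1C, 4.01 for RASSF3 and 4.59 for CDC42BPG (SE 0.43 to 0.87). All 6 passed in each of the 11 alternative analyses, in which 6 or 7 members of the list were called. Other members, such as DYNLL2 (0.01), KANK2 (0.12) and CYB5R3 (0.31), had log2 fold changes near 0 and did not pass.

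Purine-rich stretches in the 3′ untranslated region have been tied to the localisation of several of these mRNAs. The richest 30 bases of the annotated 3′ untranslated region (GENCODE 29, longest one per gene) are printed for 4 of the 6 genes that rose. TRAK2 and RASSF3 are not printed, and their richest windows held 27 and 24 G or A, against 26 in KIF1C. The longest run of G or A inside each printed window is in capitals:
RAB13: AGAAAGGAAAAAAAGGAAGAGAGAGGAAGG
NET1: gagttAAAAGAAAAAGAGAGGAAAAGAGAG
CDC42BPG: agaagaagggaagatAGAGAAGGAGGGAAA
KIF1C: ggaggctGAGGAAAGGAAGAGGGcacggag
The windows lie on GRCh38 at chr1:153981919-153981948 (minus strand), chr10:5457954-5457983 (plus strand), chr11:64823973-64824002 (minus strand) and chr17:5024308-5024337 (plus strand). The RAB13 region, 482 bases long, holds a run of 45 bases of only G and A. A run at least that long was in 0.390% of 8982 such regions of genes with a mean of at least 10 CPM, and in 0.0662% of 1510 regions of like length. In the other 5 genes that rose, the longest run of the whole region was less unusual. It was 25 bases in NET1, a length reached by 5.96% of the 8982 regions and by 4.07% of those of like length. The longest run was 20 bases in CDC42BPG (13.9%, and 8.69% of like length) and 21 in KIF1C (11.8%, and 23.3%). It was 18 bases in TRAK2 (20.3%, and 32.0%) and 16 in RASSF3 (30.7%, and 41.4%). Across all of these regions longer runs did not go with higher levels in EV 2.8K. The median log2 fold change was 0.17 for 1265 genes with runs of 0 to 8 bases and -0.22 for 450 genes with runs of 26 to 234 bases, and these groups also differed in median length, at 306 and 4140 bases. A run of G and A is a description of these letters, not a shown binding site.

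The entry AC034102.1, a pseudogene on chromosome 12 whose 604 bases are 98.7% identical to RAB13, was at 416, 337 and 471 CPM in EV 2.8K, against 11.8 CPM in cells. How reads that map to several places were counted is not given, so the counts of RAB13 and of this copy are uncertain. Among genes chosen after their values were seen, APC was at 154, 156 and 202 CPM in EV 2.8K against 38.8 CPM in cells (log2 2.14, SE 0.50, edgeR adjusted p = 0.00415), and it lost its call without set 2 or set 3 (0.265, the highest of the 11 alternatives, and 0.0721). SH3PXD2A, the scaffold of podosomes and invadopodia, was at 111, 83.6 and 109 CPM in EV 2.8K against 13.1 CPM in cells (log2 2.95, SE 0.60, edgeR adjusted p = 0.000397).

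**Figure D2:**
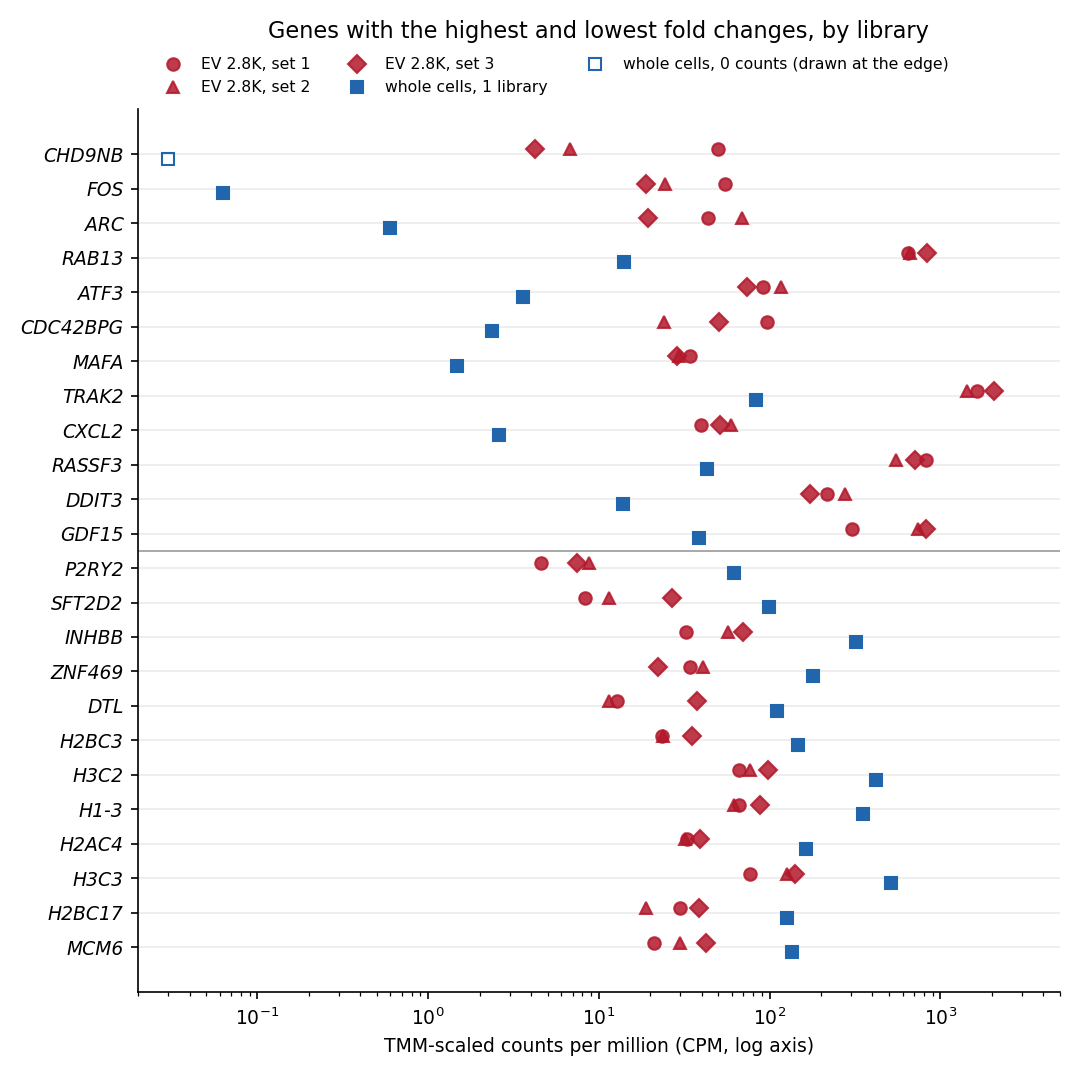
TMM-scaled CPM (x, log axis) of the 12 genes with the highest (upper block) and the 12 with the lowest (lower block) log2 fold changes, one row per gene; red symbols are the 3 EV 2.8K libraries and blue squares the cell library, an open square standing for 0 counts. In every row all 3 EV libraries lie on the same side of the cell library, and FOS, at 0.0628 CPM in cells, shows the widest gap of a gene counted in cells.

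Stress and growth-response mRNAs, which cells make quickly and degrade quickly, formed a second group of higher genes. Of 38 immediate early and short-lived mRNAs tested, 8 rose, 0 fell and 30 did not pass, with a median log2 fold change of 1.12. Among all genes tested 0.607% were called higher. FOS, a subunit of the transcription factor AP-1, was at 54.6, 24.5 and 18.8 CPM in EV 2.8K, against 0.0628 CPM in cells, where it had only 2 counts. FOS lies at chr14:75278774-75282230. Its mean level was 519 times that of cells, with an exact 95% Poisson interval of 144 to 4285 from the cell counts alone. ATF3, a transcription factor induced by many stresses, was at 91.5, 116 and 73.5 CPM in EV 2.8K against 3.61 CPM in cells (log2 4.70, SE 0.71, edgeR adjusted p = 6.25e-08). PMAIP1, which encodes the death-promoting protein NOXA, was at 348, 341 and 281 CPM in EV 2.8K and 44.7 CPM in cells. The 3 EV libraries lay above the cells for all 8 genes.

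The other 5 were the AP-1 subunits JUNB (log2 2.89) and JUND (1.58), the phosphatase DUSP1 (3.31), the mRNA-destabilising protein ZFP36 (2.93) and PPP1R15A (1.54), which directs removal of the phosphate from the initiation factor eIF2. FOSL1, the most abundant gene of the list, was at 656, 548 and 493 CPM in EV 2.8K and 730 CPM in cells and did not pass. The 12 highest genes also held ARC, a synaptic immediate early gene at 43.3, 68.8 and 19.3 CPM in EV 2.8K against 0.597 CPM in cells (log2 6.18, SE 1.11, edgeR adjusted p = 2.11e-05). The list count was 10 without set 1 and 5 without set 2 or set 3. ARC, JUND, ZFP36 and PPP1R15A lost their calls without set 2 (edgeR adjusted p = 0.145, 0.708, 0.304 and 1), and the last 3 also without set 3 (0.195, 0.492 and 0.115). These hold the highest values over the 11 alternatives for each. JUND, ZFP36 and PPP1R15A passed in 6, 5 and 6 of the 11.

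The integrated stress response couples blocked translation initiation to genes under the transcription factor ATF4. Of 31 target genes tested, from a list made after values were seen, 8 rose, 0 fell and 23 did not pass (median log2 fold change 0.88). The share called higher among all genes tested was 0.607%. DDIT3, which encodes the death-linked transcription factor CHOP, was at 218, 275 and 173 CPM in EV 2.8K against 13.8 CPM in cells (log2 4.01, SE 0.54, edgeR adjusted p = 2.32e-10). GDF15, a secreted stress cytokine, was at 302, 735 and 820 CPM in EV 2.8K against 38.4 CPM in cells (log2 4.01, SE 0.49). Set 1 lay well below sets 2 and 3 for GDF15 and still above the cells. NUPR1 (3.66), CREBRF (3.44) and the autophagy receptor SQSTM1 (1.57) rose too, beside ATF3, PMAIP1 and PPP1R15A. The mRNA of ATF4 itself (0.58) and those of the amino acid enzymes ASNS (0.43), PHGDH (0.20) and PSAT1 (-0.67) did not pass. The count was 12 without set 1, 5 without set 2 and 6 without set 3. SQSTM1 and CREBRF lost their calls without set 2 (edgeR adjusted p = 0.711 and 0.101, the highest of the 11 alternatives), and SQSTM1 also without set 3 (0.0908).

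A few cytokine and interferon genes were higher, where 0.607% of all genes tested were called higher. Of 27 NF-κB targets and cytokines tested, 2 rose and 0 fell, the chemokine CXCL2 and the pathway inhibitor NFKBIA. CXCL2 was at 39.6, 59.7 and 50.8 CPM in EV 2.8K against 2.61 CPM in cells, and NFKBIA at 341, 226 and 277 CPM against 54.1 CPM. Of 28 interferon response genes tested 2 rose, the ubiquitin-like protein ISG15 (log2 2.22) and the RNA-binding protein IFIT2 (2.33), and 0 fell. Their list median was 1.28, with 16 of 28 members above the cells in all 3 EV libraries. So were 13.8% of all genes tested and 23.8% of those with a mean of at least 10 CPM. The NF-κB count was 4 without set 1 and 1 without set 2, and the interferon count 5 without set 1 and 0 without set 2. CXCL2, ISG15 and IFIT2 lost their calls without set 2 (edgeR adjusted p = 0.179, 0.163 and 0.145, in each case the highest of the 11 alternatives).

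**Figure D3:**
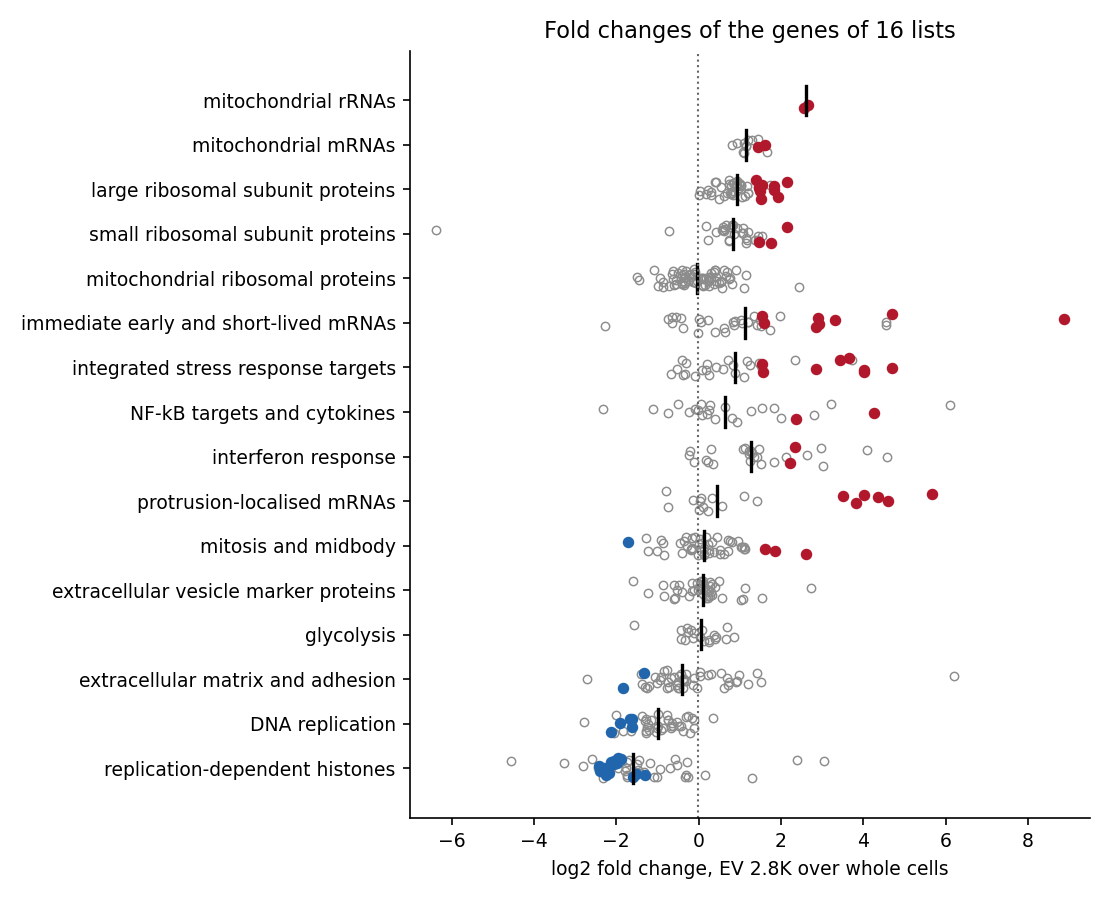
Log2 fold changes of EV 2.8K over whole cells (x) for the tested genes of 16 lists, one row per list; each circle is a gene, red if called higher, blue if called lower and open if it did not pass, black bars are list medians, the dotted line is the median of all genes, and genes with 0 counts in a group are not drawn. Medians run from 2.6 for the mitochondrial rRNAs to -1.6 for the replication-dependent histones.

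RNA made inside mitochondria took a larger share of the pellet. The mitochondrial genome encodes rRNAs, tRNAs and the mRNAs of respiratory chain subunits. Its transcripts made up 12.9, 4.92 and 4.81% of counts in EV 2.8K sets 1, 2 and 3, and 2.88% in cells (95% Wilson interval 2.87 to 2.88%, counting error only). The rRNAs differed more than the mRNAs. Mitochondrial rRNA held 5.03, 1.82 and 2.08% of EV 2.8K counts and 0.603% of cell counts, and mitochondrial mRNA 7.82, 3.09 and 2.73% against 2.27%. The ratio of rRNA to mRNA counts was 0.643, 0.589 and 0.761 in EV 2.8K against 0.266 in cells, so all 3 EV libraries lay above the cells in this ratio, set 1 included.

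MT-RNR1, the rRNA of the small mitochondrial subunit, was at 10142, 3319 and 3909 CPM in EV 2.8K and 924 CPM in cells (log2 2.65, SE 0.40, edgeR adjusted p = 1.05e-07). MT-RNR2, that of the large subunit, was at 49475, 14417 and 16046 CPM in EV 2.8K and 4517 CPM in cells (log2 2.56, SE 0.47, edgeR adjusted p = 0.000777). Set 1 lay well above sets 2 and 3, which were in turn above the cells. Of 13 mitochondrial mRNAs 2 rose and 0 fell, the cytochrome c oxidase subunits MT-CO1 (log2 1.44) and MT-CO2 (1.61), and none lay 2-fold above the cells in all 3 libraries. Among all genes tested 0.607% were called higher and 2.66% lay 2-fold above in all 3. MT-ND6, whose gene lies on the strand opposite to the other mRNAs, was at 380, 67.2 and 64.7 CPM in EV 2.8K and 97.2 CPM in cells, so the groups overlapped. The mRNA count was 3 without set 1, 0 without set 2 and 1 without set 3. MT-RNR2 passed in 6 of the 11 alternatives. It lost its call without set 2 (edgeR adjusted p = 0.0868), with total-count scaling (0.703, the highest), without a filter on low counts (0.685), with the DESeq2 Wald test (0.548) and with a minimum count of 50 (0.481). MT-RNR1 lost its call with the DESeq2 Wald test (adjusted p = 0.309, the highest of 11) and with a minimum count of 50 in edgeR (0.135). MT-CO1 passed in 5 of the 11 alternatives and MT-CO2 in 6. Both lost their calls without set 2 (edgeR adjusted p = 0.981 and 0.588) and without set 3 (0.204 and 0.0652). Both calls were also lost with the DESeq2 Wald test, with a minimum count of 50 and without robust estimation. MT-CO1 failed without a filter on low counts too. The highest adjusted p of the 11 edgeR and DESeq2 alternatives was 0.981 for MT-CO1 and 0.955 for MT-CO2.

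**Figure D4:**
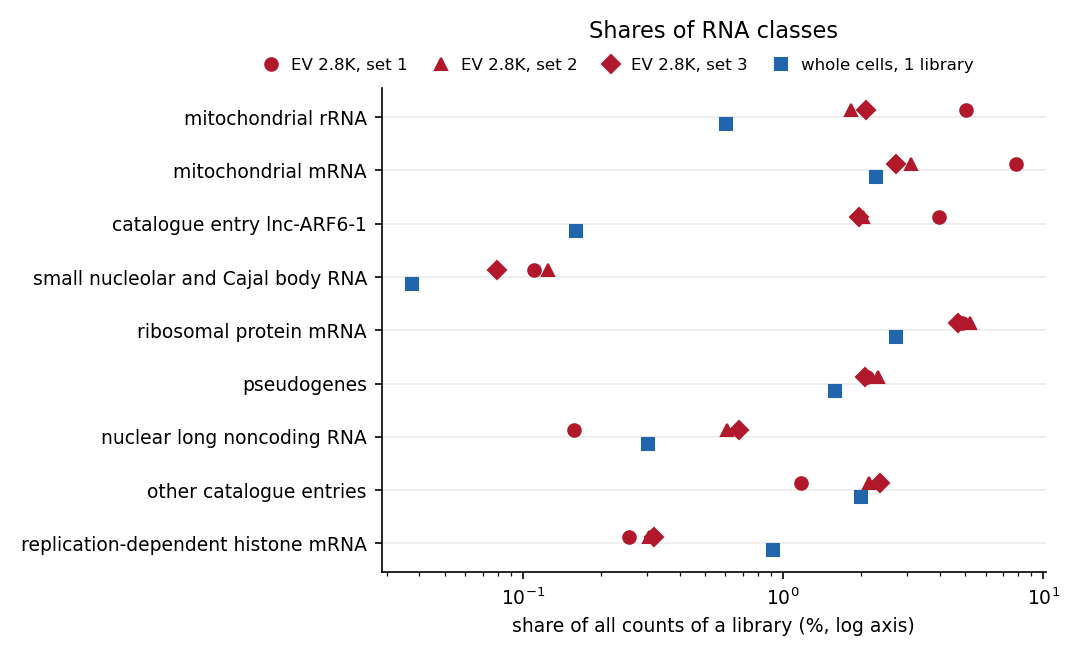
Share of all counts of a library (x, %, log axis) held by each RNA class (rows); red symbols are the 3 EV 2.8K libraries and blue squares the cell library. Mitochondrial rRNA, mitochondrial mRNA, lnc-ARF6-1, small nucleolar RNA, ribosomal protein mRNA and pseudogenes lie above the cells in all 3 EV libraries, and histone mRNA lies below in all 3.

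Cytoplasmic ribosomal protein mRNAs took a larger share of the pellet. They made up 4.87, 5.23 and 4.70% of counts in EV 2.8K, against 2.72% in cells. Of 79 genes tested, 14 rose, 0 fell and 65 did not pass, where 0.607% of all genes tested were called higher. All 3 EV libraries lay above the cells for 68 of the 79, against 13.8% of all genes tested. At a mean of at least 10 CPM, which 76 of the 79 had, 23.8% of genes lay above and 1.34% were called higher. The median log2 fold change of the 79 genes was 0.91. RPL13A, of the large subunit, was at 3822, 3635 and 2911 CPM in EV 2.8K and 915 CPM in cells (log2 1.92, SE 0.38, edgeR adjusted p = 0.000298). RPS27, of the small subunit, was at 522, 250 and 294 CPM in EV 2.8K and 79.9 CPM in cells (log2 2.15, SE 0.45, edgeR adjusted p = 0.00064). These genes have many near-identical pseudogenes, and the 8 pseudogenes called higher include RPL13AP5 and 5 copies of the ferritin gene FTH1, so their counts are uncertain.

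The ribosomal protein count was 32 without set 1, 0 without set 2 and 6 without set 3, and RPL13A and RPS27 lost their calls without set 2 (edgeR adjusted p = 0.463 and 0.0778, the highest of the 11 alternatives). The nuclear-encoded proteins of the mitochondrial ribosome gave 0 calls among 73 genes, with a median of -0.04. The iron store FTH1 was at 3543, 3163 and 2437 CPM in EV 2.8K and 872 CPM in cells (log2 1.81), and with the lipid peroxidase GPX4 (1.76) made up the 2 higher genes of 27 in iron and redox metabolism. Both lost their calls without set 2 (edgeR adjusted p = 0.585 and 0.578, the highest of the 11 alternatives).

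Short genes stood higher than long ones. Among protein-coding genes of the nuclear genome with a mean of at least 10 CPM, the 1804 genes with the shortest exonic length (312 to 3185 bases) had a median log2 fold change of 0.25. The 4 groups of like size above them in length were at -0.04, -0.12, -0.17 and -0.14. The shortest group was at 0.25, 0.22 and 0.14 in EV 2.8K sets 1, 2 and 3 on the log2 ratio scale, and at 0.24 without ribosomal protein and histone genes.

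Small nucleolar and Cajal body RNAs, which guide the modification of rRNA and snRNA in the nucleus, held 0.110, 0.125 and 0.0792% of counts in EV 2.8K and 0.0374% in cells. Of 103 tested, 2 rose and 0 fell, where 0.607% of all genes tested were called higher. SNORA23, which guides pseudouridylation, was at 245, 178 and 102 CPM in EV 2.8K against 35.2 CPM in cells (log2 2.32, SE 0.50, edgeR adjusted p = 0.00126). SCARNA21 was at 114, 197 and 163 CPM in EV 2.8K against 44.2 CPM in cells (log2 1.84). SNORA23 is shown as an example of a short RNA without a poly(A) tail, with the ACA box of its class in capitals; it spans chr11:9428773-9428954 (GRCh38, plus strand, GENCODE 29):
SNORA23: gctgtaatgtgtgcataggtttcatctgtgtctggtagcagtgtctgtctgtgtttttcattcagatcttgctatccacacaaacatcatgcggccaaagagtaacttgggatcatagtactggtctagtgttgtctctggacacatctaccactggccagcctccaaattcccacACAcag
Without set 2 neither passed (edgeR adjusted p = 0.193 and 1, the highest of the 11 alternatives), and without set 3 SCARNA21 did not (0.14). The nuclear long noncoding RNA NEAT1 was at 163, 900 and 1033 CPM in EV 2.8K and 74.4 CPM in cells, and MALAT1 at 1456, 4737 and 5113 CPM in EV 2.8K and 2145 CPM in cells. NEAT1 did not pass (log2 3.23, edgeR adjusted p = 0.524), with all 3 EV libraries above the cells and set 1 far below the others. It passed in 5 of 11 alternatives, without set 1, 2 or 3 among them (2.42e-33, 0.00364 and 0.000392; range over all 11, 2.42e-33 to 1). MALAT1 overlapped the cells and passed only without set 1 (4.5e-07, with 1 as the highest).

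mRNAs of the division furrow and midbody, the bridge between dividing cells, gave single high genes. Of 49 mitosis and midbody genes tested, 3 rose and 1 fell, where 0.607% of all genes tested were called higher and 0.204% lower. ANLN (anillin), a scaffold of the contractile ring, was at 1816, 1321 and 954 CPM in EV 2.8K against 223 CPM in cells (log2 2.61, SE 0.42, edgeR adjusted p = 6.17e-07). CENPF (1.86) and the kinesin CENPE (1.6), both of the kinetochore, rose, and the cell cycle kinase CDK1 fell by 1.71 on the log2 scale. CIT, the citron kinase of the midbody, named after its values were seen, was at 3003, 1779 and 1499 CPM in EV 2.8K and 156 CPM in cells (log2 3.74, SE 0.44, edgeR adjusted p = 1.02e-13). The proliferation marker MKI67 was at 2090, 1085 and 728 CPM in EV 2.8K and 791 CPM in cells and overlapped them. Without set 2 the count was 1 higher and 0 lower, with CENPF, CENPE and CDK1 losing their calls (edgeR adjusted p = 0.457, 0.84 and 0.0637, the highest of the 11 alternatives). CENPE passed in 5 of the 11 and also failed without set 3 (0.0721).

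Histone mRNAs took a smaller share of the pellet, and some other genes of DNA replication fell. The mRNAs of replication-dependent histones, made in S phase and ending in a stem-loop in place of a poly(A) tail, took 0.256, 0.307 and 0.321% of counts in EV 2.8K and 0.919% in cells. Of 53 histone genes tested 15 fell, 0 rose and 38 did not pass, and 30 lay 2-fold below the cells in all 3 libraries. Among all genes tested 0.204% were called lower and 11.3% lay 2-fold below in all 3. The median log2 fold change of the histone genes was -1.6. H3C2, which encodes histone H3, was at 66.5, 76.4 and 97.4 CPM in EV 2.8K against 419 CPM in cells (log2 -2.39, SE 0.38, edgeR adjusted p = 4.6e-07). H3C2 lies in the histone cluster of chromosome 6, at chr6:26031650-26032060. H1-3, a linker histone, was at 66.2, 62.0 and 87.7 CPM in EV 2.8K against 353 CPM in cells (log2 -2.29, SE 0.39). H3C3, a second H3 gene, was at 76.5, 126 and 140 CPM in EV 2.8K against 514 CPM in cells (log2 -2.17). H2BC3, H2AC4 and H2BC17, of histones H2B and H2A, were also among the 12 lowest genes, at -2.42, -2.24 and -2.13.

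The 3 EV libraries agreed closely for histones, with list medians of -1.46, -1.47 and -1.46 on the log2 ratio scale in sets 1, 2 and 3. The linker histone gene H1-4, the most abundant of the list, was at 345, 311 and 382 CPM in EV 2.8K and 855 CPM in cells and fell by 1.30. H4C2, of histone H4, was at 137, 94.8 and 62.3 CPM in EV 2.8K and 119 CPM in cells and did not pass. The number of histone genes called lower was 29 without set 1, 4 without set 2 and 12 without set 3, and H2BC3, H2AC4, H2BC17 and H1-4 were among those lost without set 2 (edgeR adjusted p = 0.141, 0.161, 0.578 and 1, the highest of the 11 alternatives). Clustered histone genes are alike in sequence, so counts of single genes are uncertain.

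Of 43 DNA replication genes tested, 5 fell, 0 rose and 38 did not pass, where 0.204% of all genes tested were called lower. All 3 EV libraries lay below the cells for 35 of the 43, against 31.1% of all genes tested. The list median was -1.0. MCM6, a subunit of the replicative helicase, was at 21.1, 29.7 and 42.2 CPM in EV 2.8K against 135 CPM in cells (log2 -2.12, SE 0.53, edgeR adjusted p = 0.013). PCNA, the sliding clamp of DNA polymerases, was at 67.6, 52.7 and 56.0 CPM in EV 2.8K against 222 CPM in cells (log2 -1.92, SE 0.43). The helicase subunit MCM4 (-1.62), the DNA methylation factor UHRF1 (-1.63) and the ribonucleotide reductase subunit RRM2 (-1.66) fell as well. DTL, which directs the destruction of the licensing factor CDT1, was at 12.7, 11.4 and 37.5 CPM in EV 2.8K against 110 CPM in cells (log2 -2.43). The list count was 11 without set 1, 0 without set 2 and 2 without set 3. Without set 2 the adjusted p was 0.304 for MCM6, 0.304 for PCNA, 0.651 for MCM4, 0.583 for UHRF1, 0.265 for RRM2 and 0.442 for DTL by edgeR, in each case the highest of the 11 alternatives. MCM4, UHRF1 and RRM2 lost their calls without set 3 as well (0.158, 0.19 and 0.212).

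The lowest genes outside these lists had varied roles. P2RY2, a receptor for extracellular ATP and UTP, had the lowest called fold change, at 4.55, 8.72 and 7.47 CPM in EV 2.8K against 61.5 CPM in cells (log2 -3.15, SE 0.84, edgeR adjusted p = 0.0285). INHBB, the beta B subunit of inhibin and activin, was at 32.5, 56.8 and 69.9 CPM in EV 2.8K against 321 CPM in cells (log2 -2.60, SE 0.41, edgeR adjusted p = 2.74e-07). SFT2D2, a protein of vesicle transport, was at 8.30, 11.5 and 26.8 CPM in EV 2.8K against 98.6 CPM in cells, and the zinc finger gene ZNF469 at 34.3, 40.5 and 22.2 CPM against 180 CPM. Of 50 matrix and adhesion genes tested, 2 fell and 0 rose, PLAU among those that fell. The share called lower among all genes tested was 0.204%. PLAU, the protease urokinase, was at 371, 429 and 346 CPM in EV 2.8K against 951 CPM in cells (log2 -1.32, SE 0.35). The list count was 8 without set 1, 0 without set 2 and 1 without set 3. P2RY2, SFT2D2 and PLAU lost their calls without set 2 (edgeR adjusted p = 0.304, 0.271 and 0.708, the highest of the 11 alternatives), and P2RY2 and PLAU also without set 3 (0.126 and 0.272).

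Single genes of other lists rose, at shares that can be set beside the 0.607% of all genes called higher, or 1.34% at a mean of at least 10 CPM. Of 72 nuclear-encoded respiratory chain genes 2 rose, the complex I subunit NDUFB7 (log2 1.8) and the ATP synthase subunit ATP5F1E (1.6), with a list median of 0.26. Of 209 zinc finger genes of chromosome 19 tested 1 was called, a share near that of all genes. It was ZNF83, at 234, 192 and 236 CPM in EV 2.8K and 51.1 CPM in cells. Of 52 actin cytoskeleton genes 2 rose, ANLN and the actin-binding peptide TMSB10 (1.61). NEFL, a neurofilament subunit, was at 1044, 543 and 698 CPM in EV 2.8K and 281 CPM in cells (log2 1.44). Its call held in 5 of the 11 alternative analyses. Besides the losses given next, it failed with total-count scaling, without a filter on low counts, with a minimum count of 50 and without robust estimation. NDUFB7, ATP5F1E, ZNF83, TMSB10 and NEFL lost their calls without set 2 (edgeR adjusted p = 0.463, 0.707, 0.192, 0.677 and 0.675, the highest of the 11 alternatives), and ATP5F1E and NEFL also without set 3 (0.0675 and 0.165).

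Other lists gave no call in either direction, which at 0.607% higher and 0.204% lower over all genes is little different from the background for lists of this size. Among them were 36 translation factors, 52 secretory pathway genes, 13 tubulins, 20 glycolysis genes, 31 proteasome genes, 30 lysosome genes and 40 splicing regulators, with median log2 fold changes of -0.45 to 0.06. Medians were higher for 5 RNA polymerase III RNAs (1.93), 21 hypoxia genes (0.64), 10 S100-list genes (0.50) and 15 MHC class I genes (0.48). All 3 EV libraries lay above the cells for 5, 12, 7 and 7 of them, and below for 0, 1, 1 and 3. Over all genes tested 13.8% lay above and 31.1% below. Only 2 of the RNA polymerase III RNAs had a mean of at least 10 CPM. The 42 tested genes for proteins used as EV markers also gave 0 calls, with a median of 0.11. The tetraspanin mRNA CD9 was at 73.4, 103 and 97.0 CPM in EV 2.8K and 102 CPM in cells, CD63 at 161, 242 and 262 CPM against 180 CPM, and CD81 at 158, 115 and 150 CPM against 136 CPM. The EV libraries of CD9, CD63 and CD81 lay on both sides of the cells. ACTB (log2 -0.39), GAPDH (0.40), EEF1A1 (0.13) and KRT8 (0.22) did not pass. In a design with 1 cell library, a gene that did not pass is not shown to be equal.

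Some entries were counted in only one of the groups. CHD9NB had 0 counts in cells and was at 49.9, 6.77 and 4.20 CPM in EV 2.8K, at least 215-fold higher than the level of 3 cell counts, and set 1 carried most of it. It did not pass without set 1 (edgeR adjusted p = 0.369, the highest of the 11 alternatives). The catalogue entry lnc-SLC26A11-1 had 0 counts in cells and was at 129, 31.6 and 54.9 CPM in EV 2.8K, at least 761-fold higher. The catalogue entries lnc-ARF6-1 and lnc-ZNF611-1 were called higher, lnc-ARF6-1 at 47055, 19720 and 18774 CPM in EV 2.8K against 1449 CPM in cells (log2 4.30, SE 0.42). Without set 2 lnc-ZNF611-1 did not pass (edgeR adjusted p = 0.146, the highest of the 11 alternatives). In the other direction ZNF43, a zinc finger gene, had 0 counts in all 3 EV libraries and 311 counts (9.77 CPM) in cells, and was at least 126-fold lower in EV 2.8K, taking 3 counts over the group as the limit. In all, 1485 tested genes had 0 counts in the 3 EV libraries and 1663 had 0 in the cell library, of which 61 were counted in every EV library.

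The pellets of faster spins show where EV 2.8K stands among vesicles. These comparisons share the EV 2.8K libraries with those above, so they are given side by side and not as further support. Over 15525 genes, 1784 (11.5%) were higher and 1491 (9.6%) lower in EV 2.8K than in the mean of EV 10K and EV 100K (edgeR adjusted p below 0.05). On the scale of all 10 libraries the mean level of RAB13 was 667 ± 86.8 CPM at 2.8K, 3018 ± 469 CPM at 10K and 1383 ± 266 CPM at 100K (SD over 3 libraries), against 12.9 CPM in cells. KIF1C averaged 3698 ± 864, 16748 ± 3463 and 25572 ± 2872 CPM in the same order, against 321 CPM in cells. Of the 18 protrusion genes 11 were lower in EV 2.8K than in the other pellets and 2 were higher.

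The stress mRNAs ran the other way. ATF3 averaged 87.4 ± 19.8 CPM at 2.8K, 25.8 ± 11.1 CPM at 10K and 7.19 ± 3.99 CPM at 100K, against 3.30 CPM in cells. Of 37 immediate early genes 22 were higher in EV 2.8K than in the other pellets, as were 11.5% of all genes tested there. DDIT3 averaged 207 ± 47.1, 106 ± 1.98 and 21.3 ± 5.87 CPM in the same order, against 12.6 CPM in cells. MT-CO1 averaged 12444 ± 8970, 1593 ± 287 and 10.8 ± 2.78 CPM, against 4458 CPM in cells, so EV 2.8K lay above the cells and both other pellets below. Of 13 mitochondrial mRNAs 13 were higher in EV 2.8K than in the other pellets. H3C2 averaged 74.5 ± 13.2 CPM at 2.8K, 208 ± 13.7 CPM at 10K and 152 ± 20.4 CPM at 100K, against 383 CPM in cells. Of 47 histone genes 24 were lower and 1 higher in EV 2.8K than in the other pellets. Among all genes tested there 9.6% were lower and 11.5% higher.

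**Figure D5:**
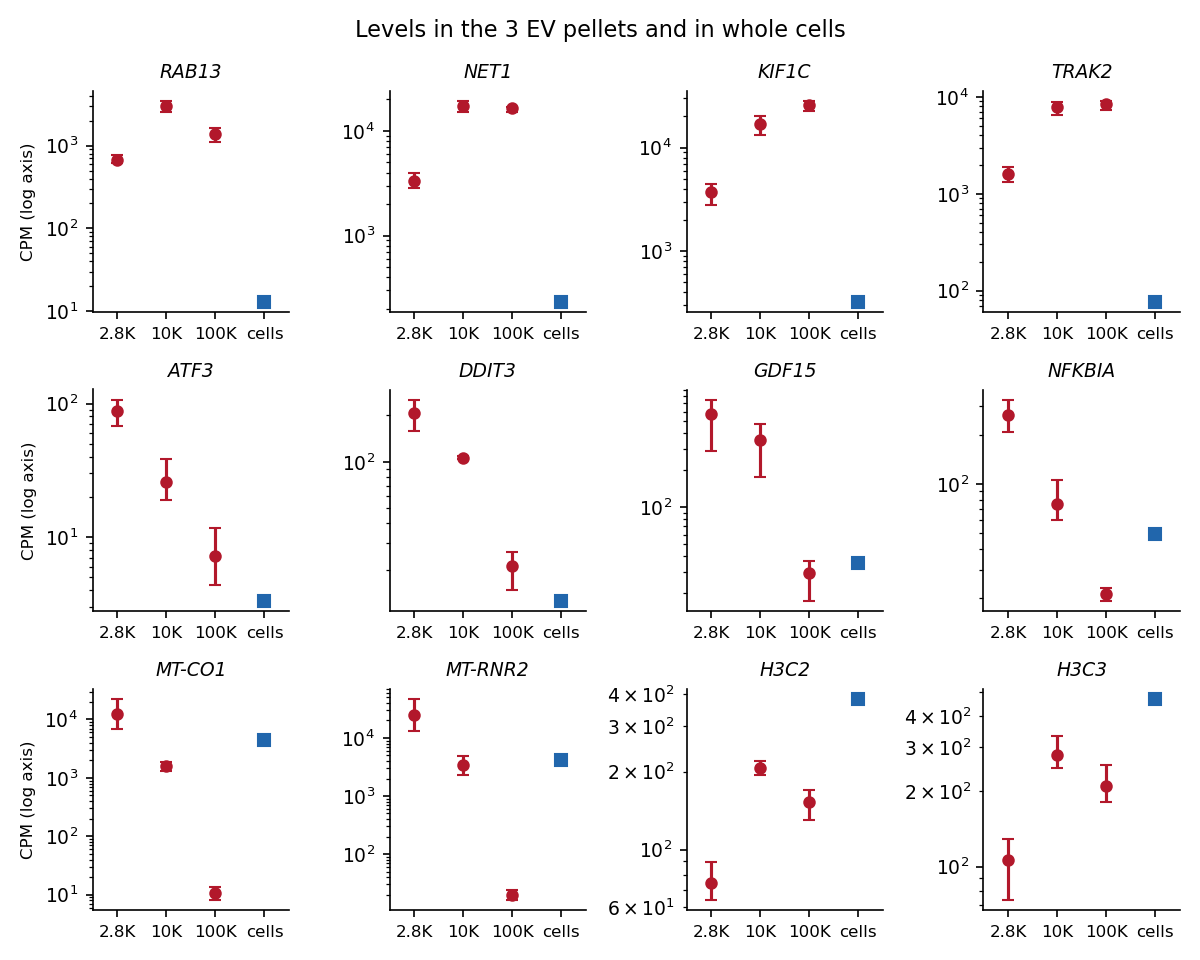
CPM scaled over all 10 libraries (y, log axis, own range in each panel) of 12 genes in the pellets of the 2.8K, 10K and 100K spins and in whole cells (x); red points are means of 3 libraries with bars from the lowest to the highest library, and blue squares are the 1 cell library. The protrusion mRNAs RAB13, NET1, KIF1C and TRAK2 lie above the cells in all 3 pellets and are lowest of the 3 in EV 2.8K, whereas ATF3, DDIT3, GDF15, NFKBIA, MT-CO1 and MT-RNR2 have their highest mean in EV 2.8K.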

How the data were processed

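Total RNA was sequenced from 3 EV 2.8K pellets and 1 sample of whole PC3 cells. The submitters' processing notes name featureCounts 1.6.3, STAR 2.6.1d, cutadapt 2.7 and bcl2fastq 2.19.1.403, and the build GRCh38. For the annotation, the strand setting and multiply mapped reads, what was done is not given. Whole-number counts for 94946 entries, not normalized, were deposited by the authors. Of these, 45574 carry GENCODE 29 identifiers, from which symbols and GRCh38 coordinates were taken. Catalogue entries were used without coordinates.

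Groups came from the sample titles. The 4 libraries were fitted with edgeR 4.0.16 (R 4.3.3): filterByExpr with a minimum count of 10, TMM scaling, the robust quasi-likelihood test and Benjamini-Hochberg adjustment over all 21104 genes (threshold 0.05). EV 2.8K was compared with the other pellets in a fit of 9 libraries. Log2 ratios per library used a pseudocount of 0.5 CPM. Intervals and floors (3 counts) cover counting error only, since reads are not independent molecules. Only the fit of the 4 libraries was run on simulated counts, with the cell library given the same spread as the EV libraries. It could therefore not test that assumption. Alternatives used other scalings, filters and left-out libraries, and DESeq2 1.42.0. Python 3.11.15, scipy 1.17.1, matplotlib 3.10.9 and blastn made intervals, figures and the pseudogene alignment.

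Members and gene lists were chosen with earlier results of these data known. Named genes are the 12 highest and 12 lowest called genes with all 3 EV libraries on 1 side and at least 10 CPM, up to 3 called members and the most abundant member of each list, and genes fixed by name. Others are marked as named after their values were seen. The text gives a part of them. Some genes that the rule names are not reported here.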

Additional observations from a re-analysis of the deposited data

Results flagged for a closer look

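Of the 24 genes with the highest and lowest fold changes, 18 also differed between EV 2.8K and the mean of EV 10K and EV 100K (edgeR adjusted p below 0.05, 9 libraries). Over all 15525 genes tested 11.5% were higher and 9.6% lower. The 24 genes were chosen for extreme values in the same EV 2.8K libraries, which favours such differences, so the 18 are not further support. Each value is a log2 difference, EV 2.8K minus the other pellets. Higher in EV 2.8K were FOS (3.85), ARC (3.79), ATF3 (2.7), CXCL2 (2.71), the transcription factor MAFA (2.54), GDF15 (2.51) and DDIT3 (2.14). By the choice of the 24 genes, these 7 were also higher in EV 2.8K than in cells. Lower in EV 2.8K were RASSF3 (-3.0), TRAK2 (-2.34), CDC42BPG (-1.91) and RAB13 (-1.6), all above the cells in EV 2.8K. Also lower were the vesicle transport gene SFT2D2 (-2.56) and the histone genes H2AC4 (-1.79), H2BC3 (-1.43), H3C2 (-1.24), H3C3 (-1.17), H2BC17 (-0.96) and H1-3 (-0.86), all below the cells in EV 2.8K. The call of H2BC17 was lost when EV 2.8K replicate 2, EV 10K replicate 1 or one of the 100K pellets was left out (edgeR adjusted p = 0.0534 to 0.119).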

How the results depend on the processing

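The counts of called genes depended on the fit. The genes called higher numbered 128, and 344 with all 10 libraries in the fit, 449 with the DESeq2 Wald test, 84 with total counts only, and 34 to 294 when 1 EV 2.8K library was left out. The genes called lower numbered 43, and 155 with all 10 libraries and 7 to 177 with 1 left out. Total-count scaling moved the median of all genes by -0.18 (log2) and the split to 84 higher and 64 lower. All 10 libraries kept 170 of the 171 calls, DESeq2 151. Genes 2-fold above in all libraries numbered 895 to 1207 with 1 EV library left out and 368 at a mean of at least 10 CPM, an alternative chosen after seeing the data. Genes 2-fold below numbered 643 at a minimum count of 50, 231 at 10 CPM, and up to 3805 with 1 library left out, the lowest being 3000. With 1 library left out fewer libraries must meet the limit, so the rule is looser in both directions. The share of ribosomal protein mRNA was 5.34% without mitochondrially encoded genes. None of the 64 named called genes changed direction under any alternative. Leaving out an EV library could hardly reverse one, since all 3 lay on 1 side of the cells for every called gene. Of the 64 genes, 42 lost their call without set 2, 14 without set 3 and 1 without set 1. For the other pellets, the set number as a replicate block gave 1733 higher and 1515 lower genes. Deviations from the group mean correlated at -0.0129 to 0.0598 between pellets of the same set number. Between pellets of different set numbers they correlated at -0.0436 to 0.0386, so any link by set number was weak. No paired analysis was possible for the cells because their library has no set number. Depth limits genes near 3 counts, which is 0.0942 CPM in cells and 0.195 to 0.280 CPM in EV 2.8K.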
